A study of Mus musculus with 20 samples.

Results

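The translation initiation and elongation factors are 56 genes of the 24421 gene rows counted in each library. They were chosen by name, as every row beginning with Eif1 to Eif6 or with Eef1 or Eef2, without the eIF2α kinases Eif2ak1 to Eif2ak4, that reached at least 1 read in 1000000 gene reads (1 CPM) in 2 or more of the 20 libraries. The names match 60 rows in all, and Eif4ebp1, an inhibitor of the cap-binding protein, passed the rule but is shown apart. The 3 members nearest the limit were Eif2s3y, Eif4ebp3 and Eef2kmt, with a second highest value of 21.1, 8.02 and 6.98 CPM. Just outside it lay Eif3j1 at 0.708 CPM, Eif4e1b with 1 read in all libraries together and Eif3j2 with 0 reads.

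The libraries came from motor neurons differentiated from mouse embryonic stem cells, in a line labelled spinal (NIL) and a line labelled cranial (NIP). Each line was sampled at 0 h without treatment, and at 12 h and 36 h both without treatment and with 20 µM cyclopiazonic acid (CPA), which gives 10 groups of 2 libraries. CPA blocks the SERCA pumps that load the endoplasmic reticulum with calcium, and per the labels it was used to cause stress of that organelle in neurons on day 2 of culture. All groups shared the neuronal medium with 2% fetal bovine serum, and the labels name no disease allele, sex or age. The names NIL and NIP are those of lines driven by Neurog2 and Isl1 with Lhx3 or with Phox2a, and each type is represented by 1 line, so the labelled type and any other difference between the lines cannot be told apart. The sample titles give the later times as 12 h and 36 h, which are used here, while other label text gives 6 h and 12 h. The labels do not say whether the 2 libraries of a group came from separate cultures, so p-values measure the spread between these libraries, which may be technical.

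Initiation begins when eIF2, a complex of 3 subunits that binds GTP and initiator tRNA, joins the small ribosomal subunit with eIF1, eIF1A, eIF5 and the large eIF3 complex. The cap-binding protein eIF4E, the scaffold eIF4G and the helicase eIF4A bring this assembly to the mRNA, and the 4E-binding proteins keep eIF4E from eIF4G. Stress in the endoplasmic reticulum activates the kinase PERK (Eif2ak3), which phosphorylates eIF2α. Phosphorylated eIF2 blocks its own exchange factor eIF2B, general initiation falls, and mRNAs such as that of Atf4 are still translated. During elongation eEF1A delivers aminoacyl-tRNA, the eEF1B complex recharges it, and eEF2 moves the ribosome along until eEF2 kinase (Eef2k) inhibits it. These are steps of protein activity, and only RNA was measured here.

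Gene reads per library ranged from 7996454 to 30321152, and the members held 1.12% to 2.03% of them. The precursor of ribosomal RNA, Rn45s, took 5.18% to 38.6% of gene reads, and 2 libraries were highest in it: untreated NIP 36 h replicate 1 and CPA-treated NIL 36 h replicate 2. Neuron markers were read at a summed 1657 to 10577 CPM and motor neuron markers at 274 to 1669 CPM. Lhx3 had no reads in NIP at 36 h without CPA or at 12 h with CPA. Markers of microglia and blood stayed at or below 0.276 CPM in sum.

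Divided by exon length, the elongation factors led the list. Eef1a1, the main eEF1A, had a median of 2165 CPM per kilobase of exon over the 20 libraries (1480 to 2660), followed by Eef2 at 667 (543 to 1089) and Eef1g, a subunit of the eEF1B complex, at 188 (142 to 265). The ranges of Eef1a1 and Eef2 overlapped with no other member, while the range of Eef1g overlapped with those of the next members. On the same scale these were Eif1 at 184, Eif5a at 169, Eif4g2 at 163, Eif4a1 at 134 and Eif3c at 105. Eef1a1, Eef2 and Eif4g2 together took 49.9% to 58.8% of all member reads in a library. Eef1a1, Eif4a1 and others have processed copies elsewhere in the genome and reads with several matches were left out of the counts, so these levels may be too low.

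The 5 members with the smallest p in the averaged CPA comparison were Eif1, Eif3c and Eif1ad, which were higher, and Eef1a2 and Eif4a2, which were lower. Their promoters are shown because genes of the stress response are known to carry certain DNA elements there. Each is the stretch of 100 bases that ends just before the earliest start annotated for the gene in RefSeq or GENCODE M21, 5′ to 3′ on the gene's strand, from RefSeq sequence of GRCm38.p6.
Eif1, chr11:100319785-100319884, plus strand: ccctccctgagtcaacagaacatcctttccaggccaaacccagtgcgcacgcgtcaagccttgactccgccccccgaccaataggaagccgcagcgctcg
Eif3c, chr7:126566412-126566511, minus strand: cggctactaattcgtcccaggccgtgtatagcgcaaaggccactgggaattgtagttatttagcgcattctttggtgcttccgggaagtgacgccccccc
Eif1ad, chr19:5366641-5366740, plus strand: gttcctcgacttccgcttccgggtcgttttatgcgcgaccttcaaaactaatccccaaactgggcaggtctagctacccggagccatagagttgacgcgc
Eif4a2, chr16:23107344-23107443, plus strand: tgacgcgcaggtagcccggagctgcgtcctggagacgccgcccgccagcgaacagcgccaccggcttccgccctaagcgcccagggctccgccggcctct
Eef1a2, chr2:181157016-181157115, minus strand: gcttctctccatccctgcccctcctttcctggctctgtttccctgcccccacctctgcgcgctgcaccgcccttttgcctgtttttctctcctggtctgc

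In all, 3 motifs were searched on both strands in the window from 250 bases before to 50 bases after the RefSeq start. Such a window was at hand for 45 of the 56 members and 17224 genes in all, which were not limited to the genes tested. A gene with several RefSeq starts has several windows, and a match in any of them counted, so such genes had more chances of a match. The core of the CEBP-ATF response element, TGATGNAA, was found in 2 members, Eef2k and Eif2s3x, which is 4.44% of members against 4% of all genes. The endoplasmic reticulum stress response element, searched in its full form, was found in 0 members and in 0.168% of all genes. The E-box CACGTG, which reads the same on both strands, was found in 12 members, 26.7% against 9.17% of all genes. None of the 5 stretches above holds any of the 3 motifs, which says only that these letters are not in those windows. A match is a description of sequence, not evidence of a bound site. Of the members that passed in the averaged comparison of the lines, Eif5a2, Eef2k and Eif4e are among these 12. Eif4e3, Eif4a2, Eif2b2, Eif3e, Eif4g3, Eif3c and Eif4a3 passed as well and are not, and some of them may have had no window. A link of the E-box with the line difference was not tested. The E-box windows below belong to Eef2, an abundant member, and to Eif5a2, Eef2k and Eif4e. Each has 30 bases with the E-box in capitals, upstream of the RefSeq start, and GENCODE M21 places a start of Eif4e further upstream.
Eif5a2, chr3:28781123-28781152, plus strand: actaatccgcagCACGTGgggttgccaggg
Eif5a2, chr3:28781148-28781177, plus strand: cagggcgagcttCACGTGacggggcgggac
Eef2k, chr7:120842788-120842817, plus strand: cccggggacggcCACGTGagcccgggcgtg
Eif4e, chr3:138527028-138527057, plus strand: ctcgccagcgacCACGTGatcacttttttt
Eif4e, chr3:138527192-138527221, plus strand: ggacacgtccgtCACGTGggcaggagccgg
Eef2, chr10:81176576-81176605, plus strand: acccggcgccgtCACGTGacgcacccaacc

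Averaged over both lines and both times, CPA raised 9 and lowered 2 of the 56 members at an adjusted p under 0.05, that is 19.6% of them, beside 21.1% of the 14792 genes tested. The median log2 change was 0.01 for the members and 0.00 for all genes. With the replicate number as a block the test passed 13 members upward and 3 downward, 28.6% of members beside 38.9% of all genes. The 5 it added were Eef2kmt, Eif2d, Eif5 and Eif6 upward and Eif4e2 downward, and Eif2d, which can deliver initiator tRNA, had a log2 change of 0.36 (adjusted p = 0.127, and 0.0133 with the block). Without the 2 libraries highest in Rn45s it passed 5 upward and 2 downward. All adjusted p-values are Benjamini-Hochberg values of edgeR's quasi-likelihood test over the 14792 genes.

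**Figure D1:**
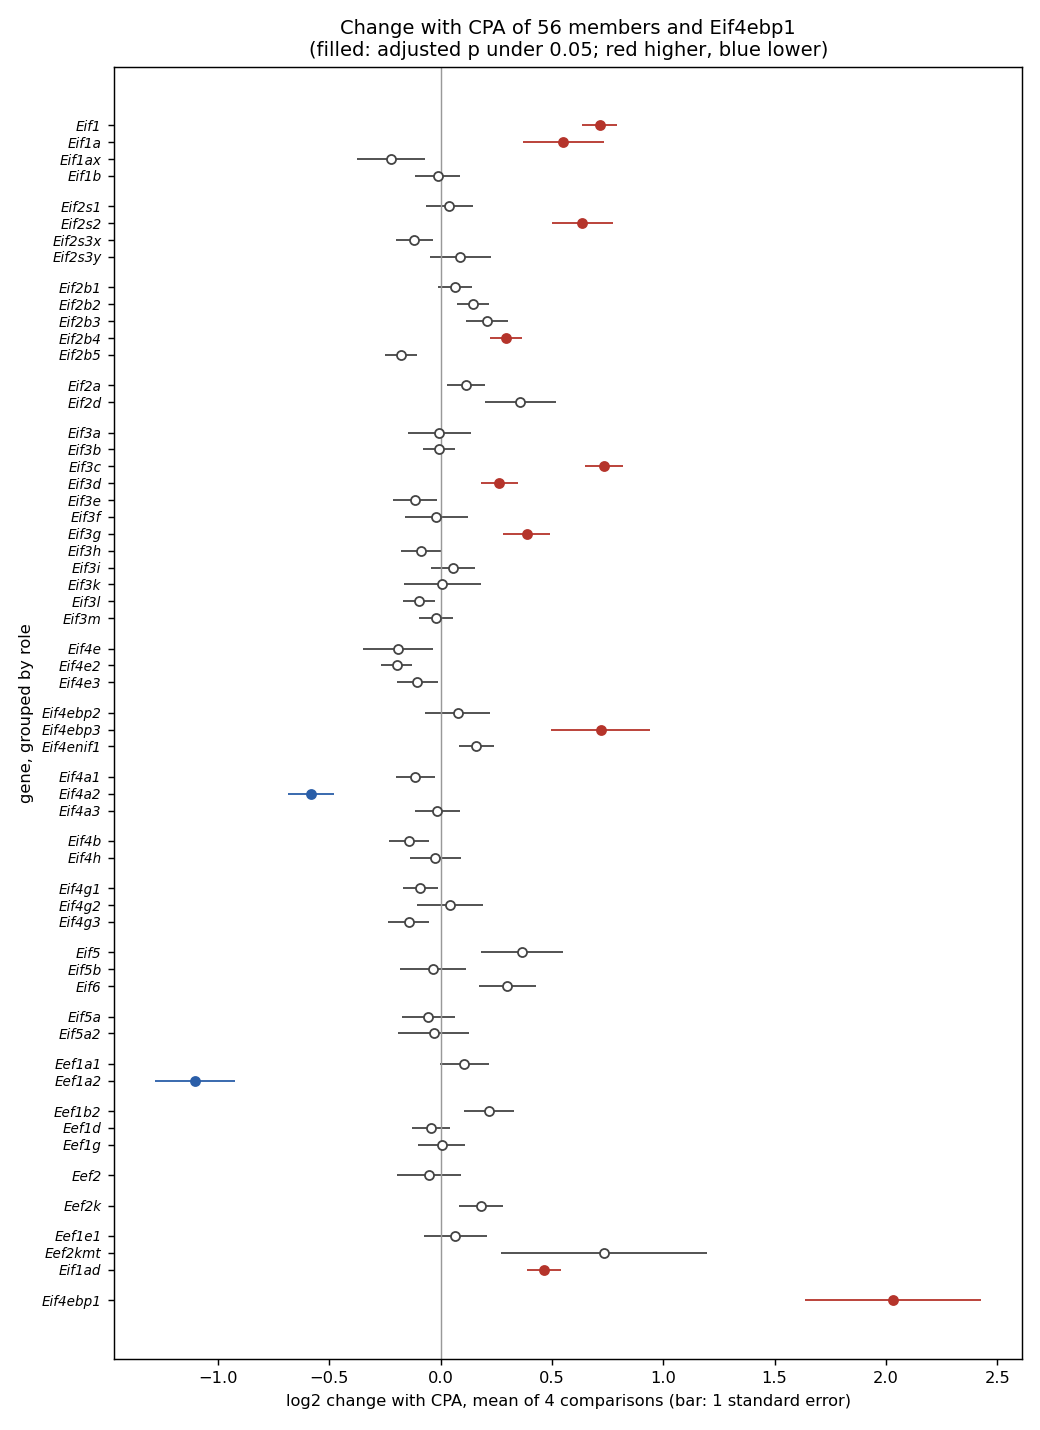
The plot shows the log2 change with CPA, averaged over 4 comparisons, of each of the 56 members and of Eif4ebp1, grouped by role, with 1 standard error; filled points passed an adjusted p under 0.05. Eif1, Eif3c and Eif4ebp3 lie furthest right among the members that passed, Eef1a2 furthest left, and most of the eIF3, eIF4 and eIF5 genes lie near 0.

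The start codon factors changed unevenly. Eif1 encodes the factor that keeps the scanning ribosome from starting at a poor codon. In NIL at 12 h its level, as CPM scaled by the TMM method of edgeR, was 292 and 339 without CPA and 528 and 493 with it. All CPM of single genes from here on are on that scale. Sums of markers are unscaled CPM of all gene reads, Rn45s included, so a high share of Rn45s lowers them. In NIP at 12 h Eif1 was at 330 and 327 without CPA and 608 and 596 with it. At 36 h the untreated libraries read 309 and 306 in NIL and 367 and 315 in NIP, and the treated ones 437 and 564 in NIL and 505 and 518 in NIP. Treated and untreated libraries did not overlap in any of the 4 pairs of groups. The averaged log2 change was 0.71 ± 0.08 (SE), with an adjusted p of 4.9e-05.

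Eif1b, a near copy of Eif1, read 49.1 to 80.5 CPM over all libraries and its averaged log2 change was -0.01 ± 0.10, adjusted p = 0.946. Per exon length, Eif1b was 24.1% to 28.4% of the pair in the untreated libraries at 12 h and 36 h and 14.3% to 23.6% in the treated ones. Eif1a, on an autosome, rose by a log2 change of 0.55 ± 0.18 (adjusted p = 0.045), and its X-linked copy Eif1ax had a log2 change of -0.22 ± 0.15 (adjusted p = 0.333). Both encode eIF1A, and the share of Eif1ax per exon length was 28.6% to 36.5% in the untreated libraries at 12 h and 36 h and 19.7% to 29.0% with CPA, ranges that met at their ends. Eif1a lost its call when 1 library was left out, with an adjusted p up to 0.105 without NIP 36 h replicate 2, and without the 2 libraries highest in Rn45s (0.0600).

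Eif1ad, named for an eIF1A-like domain, read 29.6 and 33.4 CPM in NIP at 12 h without CPA and 58.8 and 53.2 CPM with it. In NIL at 12 h it read 33.2 and 40.9 CPM without CPA and 52.5 and 43.0 CPM with it. At 36 h it read 30.9 and 34.3 CPM in NIL and 32.8 and 29.3 CPM in NIP without CPA, against 38.7 and 37.6 CPM and 42.4 and 40.9 CPM with it. The treated libraries were higher in each pair of groups and least so in NIL. The averaged log2 change was 0.46 ± 0.08 with an adjusted p of 0.000962. Eif1ad overlaps Banf1 on the other strand, and the strand setting of the counting is not given in the sources used here.

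Of the eIF3 complex, 3 of 12 subunits rose and 0 fell, and the median log2 change of the 12 was -0.01. Eif3c, a core subunit that contacts eIF1 and eIF5, read 284 and 303 CPM in NIL at 12 h without CPA and 558 and 545 CPM with it. In NIP at 12 h it read 339 and 401 CPM without CPA and 660 and 565 CPM with it. At 36 h the untreated libraries held 268 and 258 CPM in NIL and 269 and 265 CPM in NIP, and the treated ones 396 and 344 CPM in NIL and 538 and 394 CPM in NIP. No pair of groups overlapped. The averaged log2 change was 0.73 ± 0.08 with an adjusted p of 6.81e-05. Eif3g and Eif3d rose by a log2 change of 0.39 ± 0.11 and 0.26 ± 0.08, with adjusted p-values of 0.0206 and 0.0385. Neither call held without the 2 libraries highest in Rn45s (0.0998 and 0.157). The other 9 subunits, Eif3a and Eif3b among them, had log2 changes from -0.12 to 0.06.

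**Figure D2:**
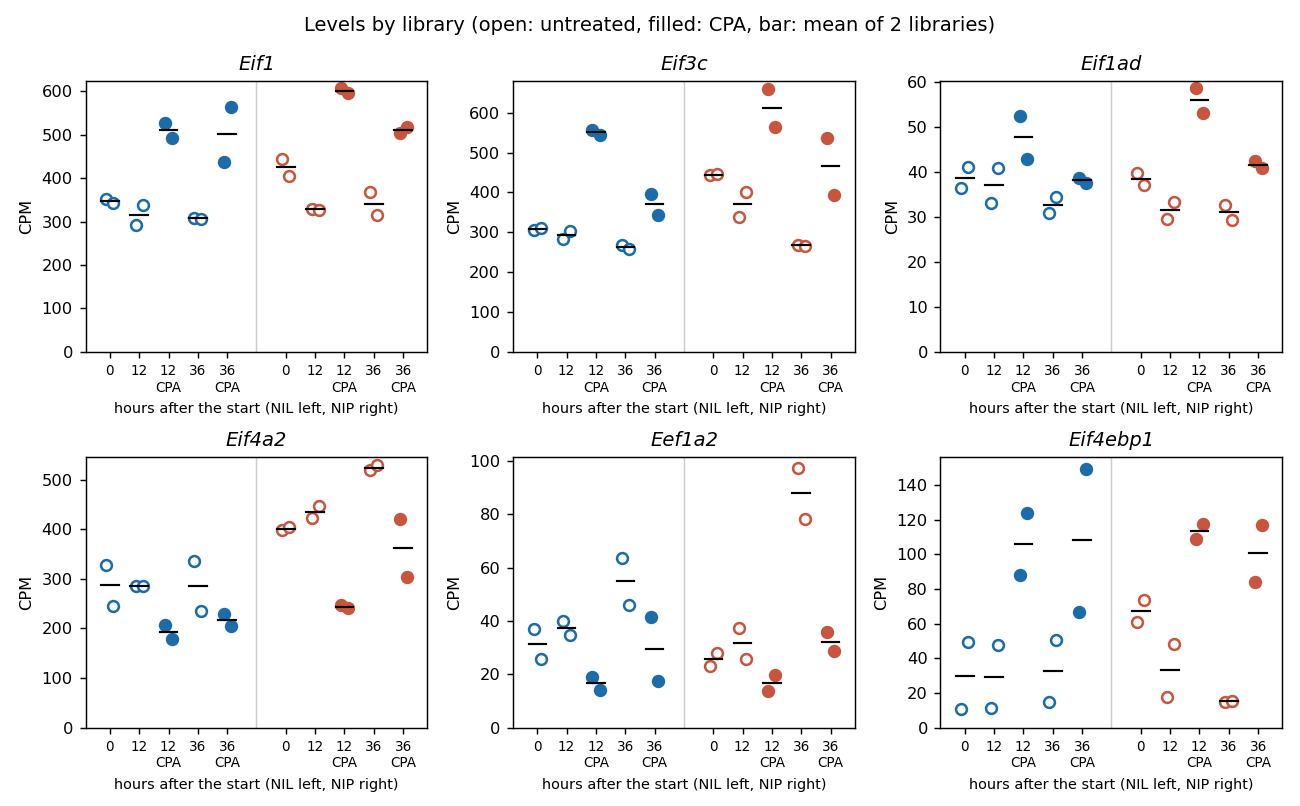
The panels show CPM by library for 5 members and Eif4ebp1, with NIL to the left and NIP to the right of the grey line and the mean of each group as a bar. CPA-treated libraries of Eif1, Eif3c and Eif1ad lie above the untreated ones of the same line and time, and those of Eif4a2 and Eef1a2 below them.

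Among the 4 genes for eIF2 subunits only Eif2s2, eIF2β, passed the test. It read 141 and 151 CPM in NIL at 12 h without CPA against 274 and 243 CPM with it, and 155 and 205 CPM against 316 and 274 CPM in NIP. At 36 h the values were 144 and 105 CPM against 167 and 145 CPM in NIL and 117 and 103 CPM against 235 and 119 CPM in NIP, where the second treated library lay just above the untreated ones. Its averaged log2 change was 0.64 ± 0.14 with an adjusted p of 0.0054. Eif2s1, which carries the serine that PERK phosphorylates, had a log2 change of 0.04 ± 0.10 (adjusted p = 0.824), and the eIF2γ genes Eif2s3x and Eif2s3y had -0.12 ± 0.08 and 0.09 ± 0.14 (0.344 and 0.688). Of the 5 eIF2B subunits, Eif2b4 rose by a log2 change of 0.29 ± 0.07 with an adjusted p of 0.00988. The other 4 did not pass, with log2 changes of 0.06 for Eif2b1, 0.15 for Eif2b2, 0.21 for Eif2b3 and -0.18 for Eif2b5. Eif2b4 and the nearby Snx17 overlap on the genome, so reads of the pair may be hard to separate.

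Of the helicases that work at the cap, Eif4a2 passed the test and Eif4a1 did not, and the difference between the 2 genes was not tested. Eif4a2, the eIF4A copy that is abundant in brain, read 285 and 286 CPM in NIL at 12 h without CPA and 207 and 178 CPM with it. In NIP at 12 h it read 422 and 447 CPM without CPA and 247 and 241 CPM with it. At 36 h it held 336 and 235 CPM against 229 and 205 CPM in NIL and 520 and 529 CPM against 420 and 304 CPM in NIP. The treated libraries were below the untreated ones in each of the 4 pairs of groups. The averaged log2 change was -0.58 ± 0.10 with an adjusted p of 0.00149. Eif4a1, the copy linked to dividing cells, had a log2 change of -0.11 ± 0.09 (adjusted p = 0.387). Eif4a2 hosts small nucleolar RNA genes and overlaps Rfc4 on the other strand.

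The cap-binding genes Eif4e, Eif4e2 and Eif4e3 had averaged log2 changes of -0.19, -0.20 and -0.10, and none passed (adjusted p = 0.425, 0.0611 and 0.465). With the replicate block Eif4e2, a relative known as 4EHP that binds the cap but not eIF4G, passed (0.0185). The scaffolds Eif4g1, Eif4g2 and Eif4g3 had log2 changes of -0.09, 0.04 and -0.14, and the helicase cofactors Eif4b and Eif4h had -0.14 and -0.02. The lowest adjusted p among these 5 was 0.285. Of the 4E-binding proteins in the list, Eif4ebp3 read 2.14 to 6.61 CPM in the untreated libraries and 3.05 to 8.89 CPM in the treated ones. Those ranges overlapped, and its averaged log2 change of 0.72 ± 0.22 had an adjusted p of 0.0345, which became 0.148 without the 2 libraries highest in Rn45s. Eif4ebp2, the 4E-binding protein known best from brain, had a log2 change of 0.08 ± 0.15 (adjusted p = 0.754).

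The averaged change of Eif4ebp1, shown apart, was larger than that of any member. Without CPA it read 11.1 and 47.5 CPM in NIL at 12 h, 14.9 and 50.5 CPM in NIL at 36 h, 17.8 and 48.0 CPM in NIP at 12 h and 14.9 and 15.5 CPM in NIP at 36 h. With CPA it read 88.0 and 124 CPM, 66.7 and 149 CPM, 109 and 117 CPM and 84.2 and 117 CPM in the same order. Every treated library was above both untreated libraries of its line and time. The averaged log2 change was 2.03 ± 0.40 with an adjusted p of 0.00302. In the 4 single comparisons the log2 change was 1.88 and 1.74 in NIL at 12 h and 36 h and 1.78 and 2.72 in NIP, with adjusted p-values of 0.301, 0.278, 0.259 and 0.123. Replicate 2 was above replicate 1 in all 10 groups, and with the replicate number as a block the 4 adjusted p-values were 0.0406, 0.0413, 0.0332 and 0.0139. Per exon length Eif4ebp1 was 31.9% to 65.6% of the sum of Eif4ebp1 and Eif4ebp2 in the untreated libraries at 12 h and 36 h. With CPA it was 70.1% to 84.4%, and in the 0 h libraries 29.7% to 74.8%.

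Eef1a2 replaces Eef1a1 in mature neurons and muscle. It read 39.8 and 34.6 CPM in NIL at 12 h without CPA and 19.1 and 14.2 CPM with it. In NIP at 12 h it read 37.4 and 25.7 CPM against 13.7 and 19.6 CPM. At 36 h it read 63.5 and 46.1 CPM against 41.6 and 17.3 CPM in NIL and 97.4 and 78.2 CPM against 35.7 and 28.8 CPM in NIP. The groups were apart in all 4 pairs, and the treated NIL libraries at 36 h were furthest from each other. The averaged log2 change was -1.10 ± 0.18 with an adjusted p of 0.000837. Eef1a1 had 0.11 ± 0.11 (adjusted p = 0.532), so the share of Eef1a2 in the pair, per exon length, was 0.504% to 2.11% without CPA at 12 h and 36 h and 0.287% to 0.993% with it.

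The other elongation genes did not pass: Eef2 had a log2 change of -0.05, Eef2k 0.18, Eef1b2 0.22, Eef1d -0.04 and Eef1g 0.00. Of the joining and release factors, Eif5, Eif5b and Eif6 had 0.37 ± 0.18, -0.03 ± 0.15 and 0.30 ± 0.13, with adjusted p-values of 0.179, 0.899 and 0.115. Eif5 and Eif6 passed with the replicate block (0.0103 and 0.0079). The hypusine-carrying factors Eif5a and Eif5a2 had log2 changes of -0.05 and -0.03 (adjusted p = 0.781 and 0.915).

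Neuron markers moved with the 2 genes that fell. All 9 had a lower level with CPA and 6 passed, with a median log2 change of -0.73. Their sum was 5103 to 10577 CPM in the untreated libraries at 12 h and 36 h and 1657 to 6868 CPM in the treated ones, with no neuron marker at 0. The 1657 CPM was read in replicate 2 of NIL at 36 h with CPA, where Rn45s took 38.3% of gene reads. Motor neuron markers were negative in 8 of 9, with 2 passing and a median of -0.45. In the averaged comparison the other lists did not all move with the 9 members that rose. All 10 endoderm and endothelium markers were positive, with a median log2 change of 0.61 and 0 passing. Their medians were 0.19 in NIL and 0.10 in NIP at 12 h, and 0.93 in NIL and 1.04 in NIP at 36 h. The sum of these markers was 1686 to 7203 CPM in untreated NIL at 12 h and 36 h and 2163 to 9056 CPM with CPA. In NIP the replicates differed. Replicate 1 held 283 CPM without CPA and 161 CPM with it at 12 h, and 133 and 136 CPM at 36 h. Replicate 2 held 1049 and 1317 CPM at 12 h, and 1204 and 2948 CPM at 36 h. All 10 proliferation markers were positive as well, with a median of 0.17 and 0 passing. Their medians were -0.05 in NIL and -0.10 in NIP at 12 h, and 0.42 and 0.57 at 36 h. Pluripotency markers were positive in 5 of 10, with a median of 0.07 and 0 passing. At 12 h the median was -0.46 in NIL and 0.18 in NIP. At 36 h it was 0.54 in NIL, where all 10 were positive, and -0.18 in NIP. Mesenchyme markers were positive in 4 of 7, with a median of 0.37 and 1 passing downward. By time, the median was 0.22 in NIL and -0.86 in NIP at 12 h, and 0.85 and 0.68 at 36 h. Astrocyte and oligodendrocyte markers were positive in 4 of 5, with a median of 0.15 and 1 passing downward. The part of these shifts in the members' values was not tested. In bulk RNA, fewer cells of a type and less RNA per cell cannot be told apart.

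At single times the test passed few members. In NIL it passed 2 upward at 12 h, Eif3c (log2 change 0.91 ± 0.17, adjusted p = 0.012) and Eif1 (0.70 ± 0.16, 0.0375), which is 3.57% of members beside 2.21% of all genes. In NIL at 36 h it passed 0 members beside 0.98% of all genes. The replicate block passed 4 and DESeq2 2, whose share of all genes is not given here. An unadjusted p under 0.05 was reached there by 4 of the 56 members, beside 17.2% of all genes. In NIP at 12 h the test passed 3 upward and 1 downward, 7.14% beside 4.71% of all genes. They were Eif1 (0.87 ± 0.16, 0.00772), Eif1ad (0.83 ± 0.15, 0.0081), Eif3c (0.73 ± 0.17, 0.0265) and Eif4a2 (-0.83 ± 0.21, 0.0351). In NIP at 36 h it passed Eif3c alone (0.80 ± 0.17, 0.0261), 1.79% beside 2.33% of all genes. With the replicate block the counts were 6, 4, 9 and 6 members in the order NIL 12 h, NIL 36 h, NIP 12 h and NIP 36 h. That is 10.7%, 7.14%, 16.1% and 10.7% of members beside 7.94%, 18.2%, 14.1% and 10.3% of all genes. Each edgeR call made without the block was lost when at least 1 of the libraries concerned was left out. All such calls in NIP at 36 h were lost without the 2 libraries highest in Rn45s. The calls made with the block were not examined in this way.

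In 7 members the treated and untreated libraries were apart in the same direction in all 4 pairs of groups: Eif1, Eif1ad, Eif2s2, Eif3c and Eif3d upward and Eef1a2 and Eif4a2 downward. Over all genes tested 8.61% showed that pattern. The difference in CPA response between the lines, and between the times within a line, was tested for every gene. In those 4 tests edgeR passed 0 members, and so did the replicate block and DESeq2, with 0, 1, 0 and 2 members at an unadjusted p under 0.05. Of all genes 2.36%, 4.40%, 4.20% and 5.73% had such a p. Without the block, edgeR passed 0% of all genes for each line difference and 0.00676% and 0.0135% for the time differences in NIL and NIP. With the block it passed 0% and 0.128% for the line differences at 12 h and 36 h. For the time differences in NIL and NIP it passed 0.108% and 1.09%. A difference that misses the threshold does not show that the responses were alike.

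Related genes outside the list give the setting of this response. Ppp1r15a, whose product GADD34 brings the phosphatase to eIF2α, rose by a log2 change of 2.67 ± 0.16 (adjusted p = 4.89e-07), and Dnajc3, which restrains PERK, rose by 2.3 ± 0.13 (2.1e-07). Of the eIF2α kinases Eif2ak3 rose by 0.50 ± 0.10 (0.0041) and Eif2ak2, PKR, fell by 0.55 on the log2 scale (0.0206), while Eif2ak1 and Eif2ak4 had -0.20 and 0.16 and did not pass (0.187 and 0.14). Eif2ak1, HRI, passed with the replicate block (0.0298). The stress genes Atf4, Ddit3 and Hspa5 rose by 1.99, 3.86 and 2.66. Of 9 tested genes for the eIF2α phosphatase and regulators of it or of the kinases, 4 rose and 0 fell: Ppp1r15a, its relative Ppp1r15b, Dnajc3, and Impact, which restrains the kinase GCN2. Among 16 genes of mTORC1 and MNK signalling 4 rose and 1, Mtor, fell. Of these Sesn2, an inhibitor of mTORC1 signalling, and Mknk1, a kinase of eIF4E, rose by 1.55 and 1.11. With the block 5 of the 16 rose and 3 fell, among them Mknk2 (log2 change -0.24, adjusted p = 0.0259) and Tsc1 (-0.23, 0.0336). Among 12 genes of mRNA ends and scanning 1, Pabpc4, rose and 0 fell. With the block 4 of these fell, which were the helicase Dhx9 (-0.71, 0.00106), Mcts1 (-0.39, 0.0106), Paip2 (-0.25, 0.0195) and Abcf1 (-0.19, 0.0319). Of 6 termination and recycling genes 1 rose and 1 fell, and 2 rose and 1 fell with the block. Of 9 mitochondrial translation factors 1 fell in either fit. These counts stand beside the 21.1% of all genes that passed, and 38.9% with the block.

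**Figure D3:**
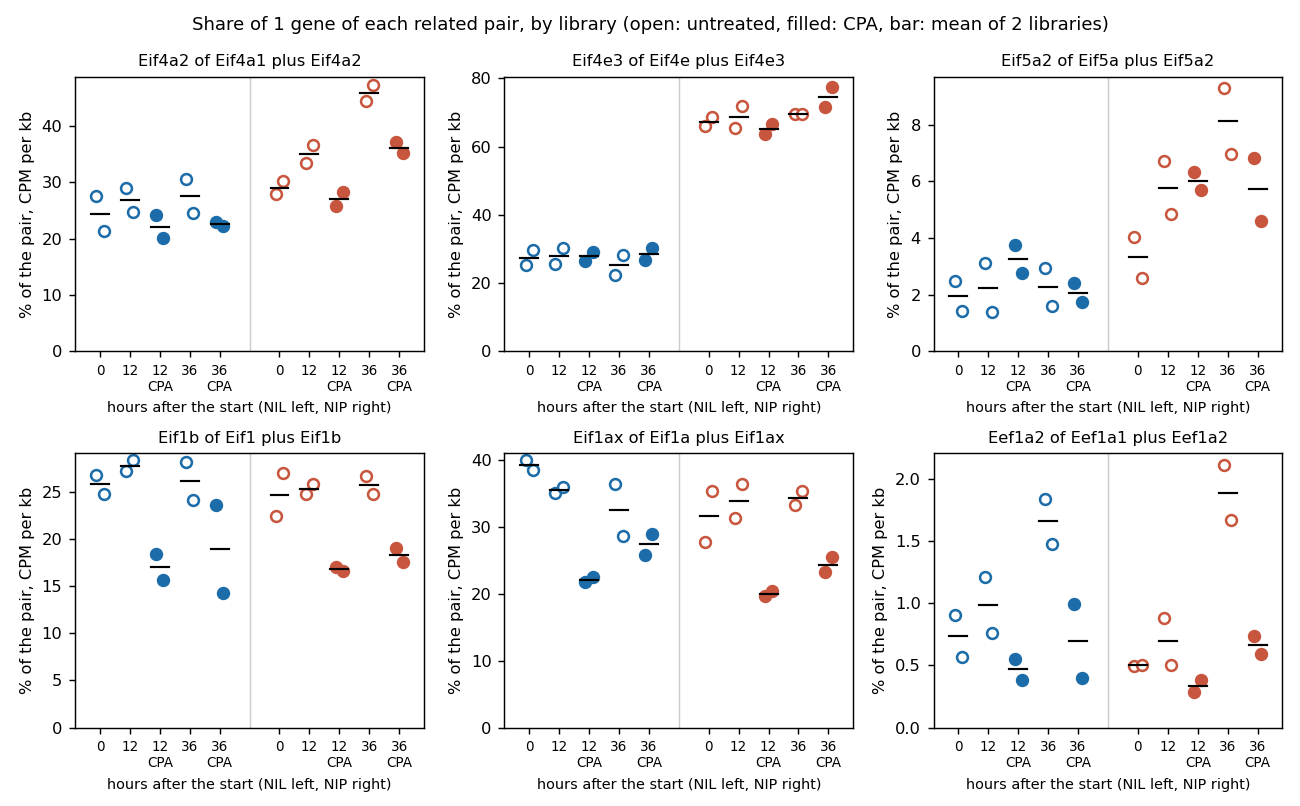
The panels show, in percent per library, how much of a related pair the first named gene made up after division of CPM by exon length. The share of Eif4e3 separates NIP from NIL, the share of Eif4a2 is highest in untreated NIP at 36 h, and the share of Eif1b is lower with CPA in each line and time. The share of Eif1ax is lower with CPA in the same way except in NIL at 36 h, where the groups overlap.

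The lines were compared without CPA. Averaged over the 3 untreated times, NIP was higher in 8 members and lower in 2, which is 17.9% of members beside 35.5% of all genes. The median log2 difference of NIP minus NIL was 0.09 for members and -0.01 for all genes. At 0 h, 12 h and 36 h the members' median was 0.17, 0.10 and 0.03, and the last became -0.05 without the 2 libraries highest in Rn45s. The test passed 3, 4 and 4 members at 0 h, 12 h and 36 h, all of them higher in NIP, which is 5.36%, 7.14% and 7.14% of members beside 12.5%, 12.0% and 11.6% of all genes. With the replicate block the averaged comparison passed 15 members as higher and 4 as lower, 33.9% of members beside 50.3% of all genes. The single times passed 7, 8 and 9 members with the block. That is 12.5%, 14.3% and 16.1% of members beside 26.3%, 27.9% and 28.8% of all genes. The untreated 12 h and 36 h libraries are also the controls of the CPA comparisons.

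The cap-binding family held the clearest line difference. Eif4e3, a divergent family member that binds the cap, read 20.3 and 17.0 CPM at 0 h, 17.7 and 18.7 CPM at 12 h and 14.2 and 12.0 CPM at 36 h in untreated NIL. In NIP the same times read 76.5 and 73.2 CPM, 70.8 and 82.3 CPM and 64.6 and 55.4 CPM. With CPA, NIL read 10.0 to 15.7 CPM and NIP 53.3 to 90.7 CPM, so no NIL library reached any NIP library. The averaged log2 difference was 2.09 ± 0.11 with an adjusted p of 1.54e-08. It passed at each time, at log2 differences of 2.00, 2.08 and 2.19, whichever library was left out, and at single times no other member did.

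Eif4e went the other way. Untreated NIL read 144 and 96.3 CPM at 0 h, 123 and 104 CPM at 12 h and 117 and 72.5 CPM at 36 h. Untreated NIP read 94.2 and 80.0 CPM, 89.7 and 77.4 CPM and 67.8 and 58.3 CPM. The lines were apart at each untreated time, with replicate 1 above replicate 2 in every group. The averaged log2 difference was -0.50 ± 0.18 with an adjusted p of 0.0477, and it became 0.0508 without the 2 libraries highest in Rn45s and up to 0.130 with 1 library left out. Per exon length, Eif4e3 was 22.4% to 30.2% of the sum of Eif4e and Eif4e3 in NIL and 63.6% to 77.6% in NIP, over treated and untreated libraries. Eif4e2 did not pass, with a log2 difference of -0.03 ± 0.08 (adjusted p = 0.811).

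**Figure D4:**
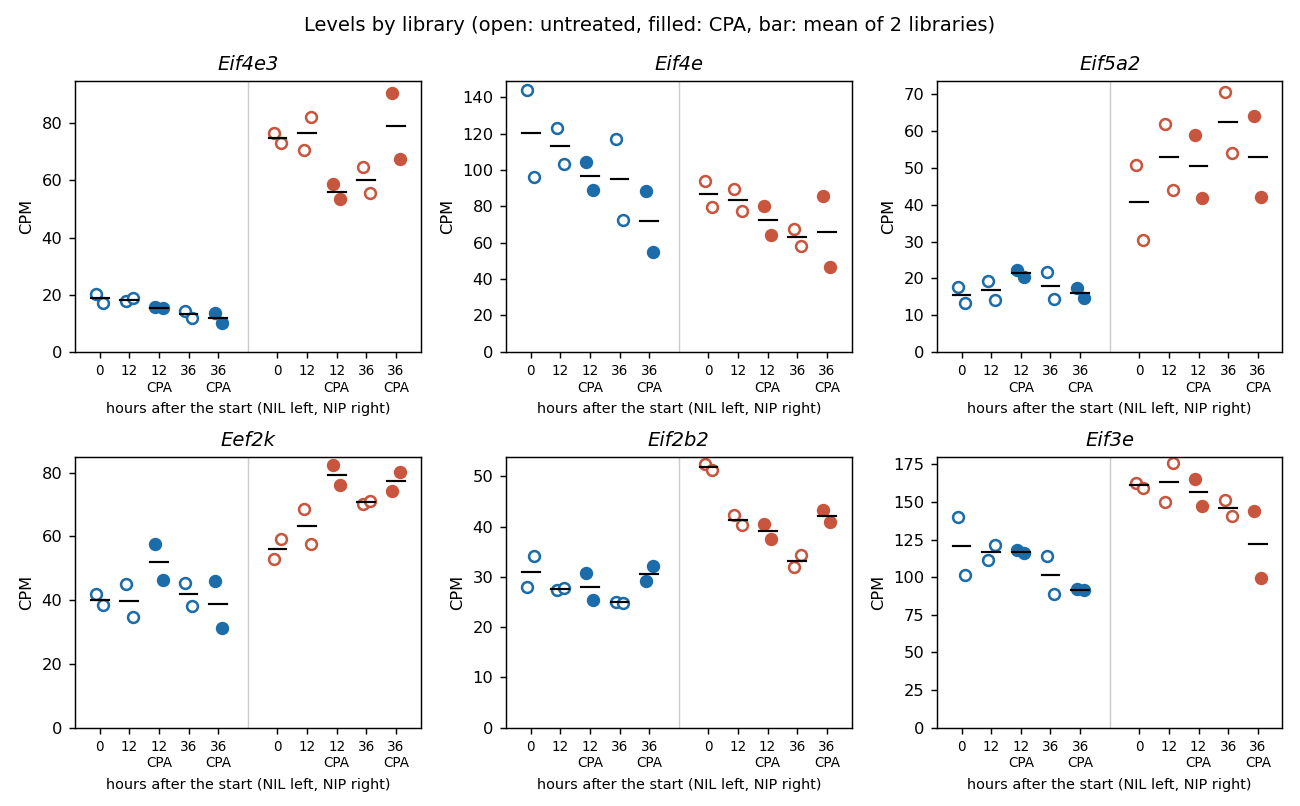
The panels show CPM by library for 6 members that differed between the lines, drawn as in the panels of CPM for the CPA response. Eif4e3, Eif5a2, Eef2k, Eif2b2 and Eif3e lie higher in NIP at each of the 3 untreated times, and Eif4e lies lower.

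Eif5a2, a copy of eIF5A with a narrower tissue range than Eif5a, was the second. Untreated NIL read 13.3 to 21.6 CPM, and NIP read 50.9 and 30.5 CPM at 0 h, 62.0 and 43.9 CPM at 12 h and 70.8 and 54.1 CPM at 36 h. Every NIP library was above every NIL library. The averaged log2 difference was 1.61 ± 0.19 with an adjusted p of 1.82e-05, beside 0.15 ± 0.14 for Eif5a (0.419). The share of Eif5a2 in the pair per exon length ranged from 1.37% to 3.76% in NIL and from 2.60% to 9.29% in NIP.

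Eef2k, the kinase that inhibits eEF2, read 34.6 to 45.4 CPM in untreated NIL and 52.8 to 71.2 CPM in untreated NIP. The ranges did not meet, and the averaged log2 difference was 0.63 ± 0.11 with an adjusted p of 0.000759. Its target Eef2 had 0.45 ± 0.17, with an adjusted p of 0.05 that did not fall under the threshold and of 0.00216 with the replicate block. Eif4a2 read 235 to 336 CPM in untreated NIL and 398 to 529 CPM in untreated NIP. Its log2 difference was 0.65 ± 0.12 (adjusted p = 0.000788). Eif4a3, the helicase of the exon junction complex, was lower in NIP by a log2 difference of -0.37 ± 0.12 (0.0241), and Eif4a1 had -0.02 ± 0.10 (0.877).

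Eif2b2, the β subunit of eIF2B, read 27.9 and 34.1 CPM in NIL at 0 h against 52.5 and 51.2 CPM in NIP. At 36 h it read 25.1 and 24.7 CPM against 31.9 and 34.4 CPM. The lines were apart at both times and nearer each other at the later one. The averaged log2 difference was 0.58 ± 0.08 with an adjusted p of 9.75e-05, while the other 4 eIF2B subunits had log2 differences of 0.06 to 0.23 and did not pass. Eif3e, Eif4g3 and Eif3c were higher in NIP by log2 differences of 0.47 ± 0.11, 0.34 ± 0.11 and 0.29 ± 0.10 (adjusted p = 0.00574, 0.0256 and 0.0312). Of these 3, Eif3e passed whichever library was left out, while Eif4g3 and Eif3c reached an adjusted p of 0.136 and 0.123, and Eif4a3 reached 0.0692. Eef1a1 and Eef1a2 had log2 differences of 0.33 and 0.05 and did not pass (0.0564 and 0.881), nor did Eif4ebp2 at -0.28 (0.219). With the replicate block Eef1a1 (0.0224) and Eif4ebp2 (0.0367) passed.

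In 7 members NIP lay above NIL without overlap in all 5 conditions of time and CPA: Eif4e3, Eif5a2, Eef2k, Eif2b2, Eif3e, Eif4a2 and Eif4g3. Over all genes tested 11.7% showed that pattern. Markers of other cells differed between the lines in the same libraries. Proliferation markers summed to 272 to 765 CPM in untreated NIL and 48.4 to 216 CPM in untreated NIP, and all 10 were lower in NIP in the averaged test. Pluripotency markers summed to 47.8 to 343 CPM and 8.10 to 52.5 CPM (8 of 10 lower), mesenchyme markers to 66.0 to 198 CPM and 8.88 to 51.6 CPM (6 of 7), and endoderm and endothelium markers to 1074 to 7203 CPM and 133 to 1204 CPM (6 of 10). Astrocyte and oligodendrocyte markers went the other way in sum, at 10.9 to 20.1 CPM in untreated NIL and 20.8 to 44.2 CPM in untreated NIP, with 2 of 5 higher and 1 lower. Motor neuron markers summed to 714 to 1163 CPM and 1102 to 1669 CPM, with 3 of 9 higher and 4 lower, and neuron markers to 5103 to 9756 CPM and 6102 to 10577 CPM, with 2 of 9 higher and 1 lower. In each list the lowest sum of untreated NIP came from replicate 1 at 36 h, where Rn45s took 38.6% of gene reads. Prrx1 of the mesenchyme list had no reads in untreated NIP at 36 h. The part of these cells in the line differences was not tested.

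Over time without CPA most members had a negative log2 change in both lines, and few passed. In NIL 44 of 56 members had a negative log2 change from 0 h to 36 h, 78.6% beside 49.2% of all genes. The median was -0.13 for members beside 0.00 for all genes. The test passed 0 members, beside 0.027% of all genes, and 4 had an unadjusted p under 0.05, beside 5.78% of all genes. DESeq2 passed 0 members, and so did the replicate block, beside 0.940% of all genes with the block. From 0 h to 12 h edgeR, DESeq2 and the replicate block passed 0 members in NIL and 0 in NIP, beside 0% of all genes in both. An unadjusted p under 0.05 was reached by 0 and 2 members, beside 0.804% and 2.37% of all genes.

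In NIP 49 of 56 members had a negative log2 change from 0 h to 36 h, 87.5% beside 51.5% of all genes. The median was -0.31 for members beside -0.02 for all genes. The test passed 2 members, 3.57% beside 1.29% of all genes. An unadjusted p under 0.05 was reached by 15 of the 56 members, beside 14.7% of all genes. Eef1a2 read 23.1 and 28.0 CPM at 0 h and 97.4 and 78.2 CPM at 36 h, and rose by a log2 change of 1.78 ± 0.36 (adjusted p = 0.0303). Eif2b2 read 52.5 and 51.2 CPM at 0 h and 31.9 and 34.4 CPM at 36 h, and fell by 0.64 on the log2 scale (0.0414). The libraries of the 2 times were apart for both genes. With the replicate block the test passed 2 upward, Eef1a2 and Eif5a2 (0.0122), and 9 downward, among them Eif3c (0.0095), Eif2b3 (0.012), Eif2s2 (0.0131), Eif4a1 (0.0195) and Eif5a (0.029). That is 19.6% of members beside 9.09% of all genes. DESeq2 passed 1 upward and 6 downward, and its share of all genes is not given here. The fit on fewer libraries was that of edgeR without the block. Without the 2 libraries highest in Rn45s, of which 1 is in the 36 h group, it passed 0 members.

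All 12 eIF3 subunits had a negative log2 change in NIP, from -0.73 for Eif3c to -0.14 for Eif3e, and all 12 in NIL, from -0.44 to -0.01. None of these passed without the block. Eif4g1, Eif4g2 and Eif4g3 had log2 changes of -0.02, -0.02 and 0.05 in NIP. In the helicase pair the values had opposite signs, since Eif4a1 had -0.67 ± 0.18 (adjusted p = 0.0883) and Eif4a2 0.39 ± 0.20 (0.419). Per exon length, Eif4a2 was 27.9% and 30.3% of the pair in NIP at 0 h, 33.5% and 36.7% at 12 h and 44.5% and 47.4% at 36 h. With CPA it was 25.8% and 28.3% at 12 h and 37.2% and 35.1% at 36 h. In untreated NIL it stayed at 21.3% to 30.6%. The libraries of the 3 untreated NIP times did not overlap in this share, which was not tested.

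Proliferation markers in the same NIP libraries summed to 127 and 216 CPM at 0 h and 48.4 and 135 CPM at 36 h. The 48.4 CPM was read where Rn45s took 38.6% of gene reads. Of these markers 10 of 10 were negative, with a median log2 change of -0.72, and 0 passed. Their part in the members' values was not tested. Eif4ebp1 had 60.9 and 73.7 CPM at 0 h and 14.9 and 15.5 CPM at 36 h in NIP, a log2 change of -2.14 ± 0.80 (adjusted p = 0.226), which passed with the replicate block (0.0399).

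**Figure D5:**
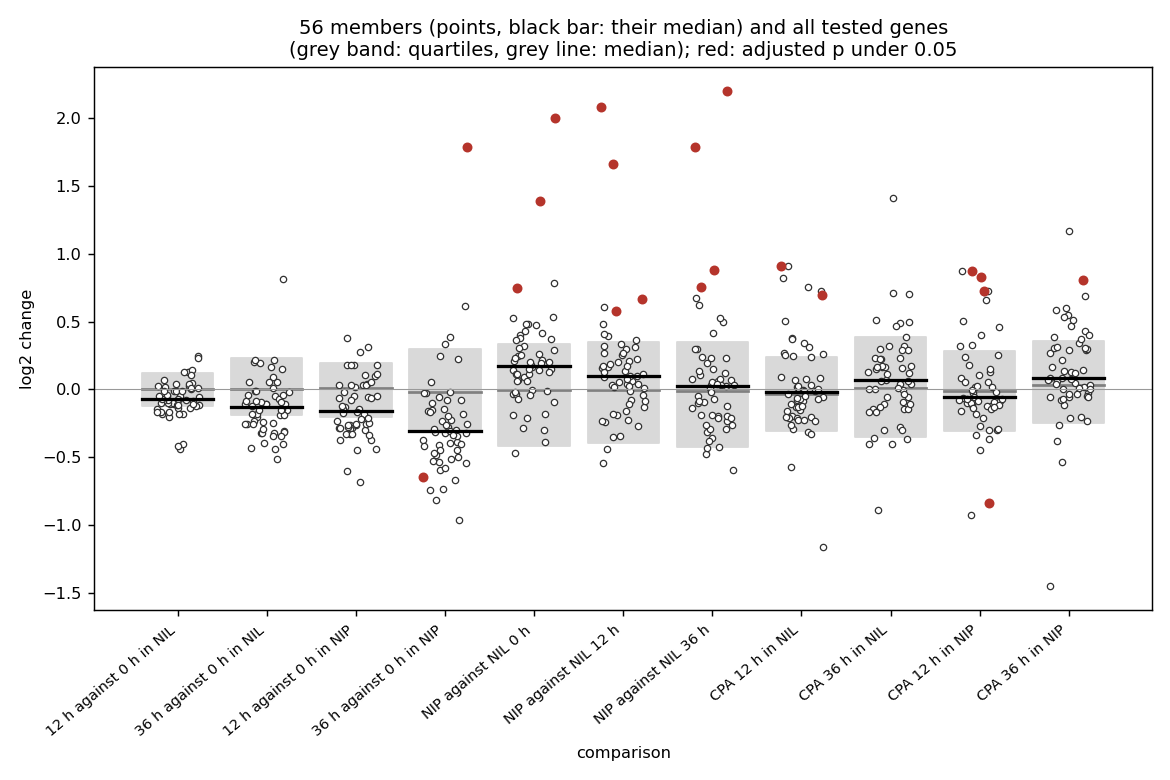
The plot shows the log2 change of the 56 members in each of 11 comparisons as points, with their median as a black bar and the quartiles and median of all 14792 genes in grey; red points passed an adjusted p under 0.05. The black bar lies below the grey line in the 4 comparisons of time, furthest in NIP from 0 h to 36 h, and above it in the comparisons of NIP with NIL at 0 h and 12 h.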

How the data were processed

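Total RNA depleted of ribosomal RNA was sequenced from 20 libraries in 10 groups of 2, mapped to groups by the sample titles. The values used are the deposited whole-number counts of reads per gene, 1 file a library. Per the submitters' processing notes, the tools were TopHat2 2.1.1 with Bowtie2 2.3.2, Picard and HTSeq 0.6.1p1, on GRCm38 (mm10). The order, settings and strand option are not given in the sources used here. The 5 summary lines of each file (reads without a gene, ambiguous, or with several matches) were left out of library sizes. Reads with several matches were 18.2% to 52.6% of all lines, and reads without a gene 7.77% to 18.7%.

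Counts were fitted with edgeR 4.0.16 (TMM scaling, filterByExpr, robust quasi-likelihood F test) in R 4.3.3, with all 10 group means in 1 model of 14792 genes, 10 residual degrees of freedom and a biological coefficient of variation of 27.5%. Adjusted p-values are Benjamini-Hochberg over those genes in each of 17 comparisons, with a threshold of 0.05. Same-numbered replicates deviated together from their group means in all 45 pairs of groups (r = 0.243 to 0.763), so a fit with the replicate number as a block was run as well, and its values are given beside the counts and named genes whose call it changed in the averaged comparisons. Other fits used DESeq2 1.42.0, its size factors, no filter, only the compared groups, 1 library left out, and neither of the 2 libraries highest in Rn45s. Exon lengths come from GENCODE M21.

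The members and lists were chosen with earlier results of these data known. Values are given for Eif4ebp1, for a fixed set of main factors, for the 3 members on either side of the CPM rule and for up to 6 members a direction with the smallest p in each comparison. Among related genes the kinases, 4 named stress genes and the 3 others with the smallest p are given. Eif1b, Eif3d, Eif4e2, Eif4h, Eif4g3 and the remaining genes were named after their values were seen.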

Additional observations from a re-analysis of the deposited data

How the results depend on the processing

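With 2 libraries a group, single libraries decided most calls at 1 time, and where 1 was left out the remaining library was assumed to vary like the other groups. Of the values for named genes under all settings, 1041 stayed on the same side of the threshold, 159 lost their call, 45 gained one and 11 changed sign. The causes of the differences between settings were not tested. Apart from the replicate block, the member counts of the other settings stand without a share of all genes. They cannot be read as a result about the members.

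With the replicate block, which uses the pairing of the libraries, the members passing numbered 6, 4, 9 and 6 for CPA in NIL at 12 h and 36 h and in NIP at 12 h and 36 h. Of all genes it passed 7.94%, 18.2%, 14.1% and 10.3% in the same order. For the lines at 0 h, 12 h, 36 h and averaged they numbered 7, 8, 9 and 19, and for 36 h against 0 h in NIP 11. Of all genes the block passed 26.3%, 27.9%, 28.8% and 50.3% for the lines and 9.09% for 36 h against 0 h in NIP. DESeq2 passed 2 for CPA in NIL at 36 h, 3 in NIP at 36 h and 7 for 36 h against 0 h in NIP, and its size factors in edgeR passed 2 in NIP at 36 h. With no filter the counts were 1 for CPA in NIL at 12 h, 2 and 0 in NIP at 12 h and 36 h, 2 for the lines at 12 h and 1 for 36 h against 0 h in NIP. With only the compared groups they were 0 for CPA in NIL at 12 h, 0 in NIP at 36 h, 1, 2 and 2 for the lines at 0 h, 12 h and 36 h, and 4 for 36 h against 0 h in NIP. Without the 2 libraries highest in Rn45s they were 2 and 0 for CPA in NIP at 12 h and 36 h, 7 for CPA averaged, 2 for the lines at 36 h and 0 for 36 h against 0 h in NIP.

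Leaving out 1 library gave 0 members for CPA in NIL at 12 h, 0 to 2 in NIL at 36 h, 0 to 2 in NIP at 12 h, 0 to 1 in NIP at 36 h and 7 to 11 averaged. For the lines it gave 2 to 3 at 0 h, 1 to 3 at 12 h, 1 to 3 at 36 h and 6 to 8 averaged, and for 36 h against 0 h in NIP 0.

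None of the values that changed sign had passed. With CPA, leaving out 1 library gave log2 changes of -0.04 to 0.58 for Eif3g in NIL at 12 h, -0.05 to 0.29 for Eif1a and -0.02 to 0.10 for Eif2b4 in NIL at 36 h, and -0.06 to 1.04 for Eif1a and -0.04 to 0.90 for Eif4ebp3 in NIP at 36 h. The difference of Eif3c between the lines at 36 h was 0.02, and it was -0.01 with no filter, -0.01 without the 2 libraries highest in Rn45s, -0.02 with only the compared groups and -0.07 to 0.05 with 1 library left out. The 56 members were the same with CPM computed without Rn45s or with TMM scaling. In the 250 bases before the start alone, 11 members held the E-box, 2 the CEBP-ATF core and 0 the stress element.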

Other observations

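Replicate numbers carried a difference of their own among the members. In the fit with the replicate block, 13 members were higher and 13 lower in replicate 2 than in replicate 1, which is 46.4% of members beside 49.2% of all genes. Eef2kmt, a methyltransferase that acts on eEF2, was higher in replicate 2 by 1.45 on the log2 scale, and Eif4ebp1 by 1.00. Eif5a2 was lower in replicate 2, at a log2 difference of -0.46. Pluripotency markers and endoderm and endothelium markers summed higher in replicate 2 in every group. In NIL at 0 h they summed to 47.8 against 265 CPM and to 1074 against 3566 CPM. Neuron markers summed lower in replicate 2 in every group except untreated NIP at 36 h. The part of these differences in the members' values was not tested. Eef2kmt, at 0.816 to 10.5 CPM over all libraries, had an averaged log2 change with CPA of 0.73 ± 0.46 (adjusted p = 0.29 in edgeR), which passed with the block (0.00158).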
